A study of Mus musculus with 4 samples.

Results

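The genes described here make, control and export cholesterol. Hmgcs1, Idi1, Fdps and Sqle encode enzymes of sterol synthesis, Insig1 and Srebf2 encode regulators of that synthesis, and Abca1 and Abcg1 encode exporters of cholesterol. They were found by symbol and are 8 of the 32285 gene rows of the count matrices, each under a single row. None of the 8 is an uptake receptor, so genes of sterol uptake are given only as part of a longer list of the pathway.

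CD45+ cells sorted from livers of female C57BL/6 mice were measured by 10x Genomics 5′ v2 single-cell RNA sequencing, in which each captured transcript counts once as a unique molecular identifier (UMI). There were 4 libraries, 1 per group. The young WT library came from untreated mice of about 8 weeks. The WT DEN, miR146-/- and miR146-/- Ccl5-/- (DKO) libraries came from mice of 36 weeks that had received diethylnitrosamine (DEN, a liver carcinogen) at 25 mg/kg into the peritoneum on day 14 and were weaned on day 21 onto a choline-deficient high-fat diet (CDHFD, 60% fat). The miR146-/- mice lack the microRNA miR-146a, and the DKO mice lack it and the chemokine gene Ccl5. DEN and CDHFD were shared by all 3 older libraries, so age, carcinogen and diet cannot be told apart in the comparison with the young library, and no library lacked Ccl5 alone. How many mice were pooled into a library is not given in the sources used here.

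Cells sense sterol in the membrane of the endoplasmic reticulum. When sterol is scarce, the protein SCAP carries SREBP-2, the product of Srebf2, to the Golgi, where it is cut and released as a transcription factor for the enzymes of the mevalonate and cholesterol pathway and for Insig1. When sterol is plentiful, INSIG proteins hold SCAP back, so that Insig1 is both a target and a brake of the pathway. Oxysterols that build up with excess sterol activate the nuclear receptors LXRα and LXRβ (Nr1h3 and Nr1h2), which induce Abca1 and Abcg1. In the liver, macrophages and B cells meet lipoproteins and dying cells, and dividing cells need sterol for new membrane.

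On the GRCm38 build (GENCODE M21), Hmgcs1 (ENSMUSG00000093930) lies at chr13:119690379-119708260, Idi1 (ENSMUSG00000058258) at chr13:8885501-8892451 and Fdps (ENSMUSG00000059743) at chr3:89093588-89101959 on the minus strand. Sqle (ENSMUSG00000022351) lies at chr15:59315077-59331192, Insig1 (ENSMUSG00000045294) at chr5:28071363-28078662 and Srebf2 (ENSMUSG00000022463) at chr15:82147181-82205379. Abca1 (ENSMUSG00000015243) lies at chr4:53030787-53159895 on the minus strand and Abcg1 (ENSMUSG00000024030) at chr17:31057675-31117988. All 8 are protein-coding.

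Promoter sequence from RefSeq (GRCm38.p6) matched 5 of the 8 genes by symbol. It is shown because 4 of those 5 genes moved together, to differing degrees, across cell classes and Abca1 did not. Pearson's r among the 4 ran from 0.66 (Insig1 with Srebf2) to 0.93 (Hmgcs1 with Idi1), and with Abca1 from -0.54 to -0.32. Without plasmacytoid and mature dendritic cells, r of Insig1 with Srebf2 was 0.56. Each sequence runs 5′ to 3′ on the strand of its gene and stops before the first base that any annotated transcript covers. Capitals mark matches to 3 short motifs, searched on both strands of the 250 bases before the RefSeq start: TCACNCCA, a form of the sterol regulatory element that SREBP proteins bind, CCAAT, the box bound by NF-Y, which reads ATTGG on the other strand, and CACGTG, an E-box.
Hmgcs1 (chr13:119690101-119690350, plus strand): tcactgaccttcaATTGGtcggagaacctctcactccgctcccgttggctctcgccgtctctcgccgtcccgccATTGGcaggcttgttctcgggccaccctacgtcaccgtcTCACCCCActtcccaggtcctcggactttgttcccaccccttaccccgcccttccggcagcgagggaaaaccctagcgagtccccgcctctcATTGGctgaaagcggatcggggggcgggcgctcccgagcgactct
Idi1 (chr13:8885356-8885500, plus strand): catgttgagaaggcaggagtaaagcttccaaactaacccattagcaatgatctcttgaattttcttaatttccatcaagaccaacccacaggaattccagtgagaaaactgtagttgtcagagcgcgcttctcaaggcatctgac
Insig1 (chr5:28071162-28071362, plus strand): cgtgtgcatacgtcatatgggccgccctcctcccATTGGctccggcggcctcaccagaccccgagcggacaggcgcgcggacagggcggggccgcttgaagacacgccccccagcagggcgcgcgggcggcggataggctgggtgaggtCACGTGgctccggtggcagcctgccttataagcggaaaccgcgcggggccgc
Srebf2 (chr15:82147019-82147180, plus strand): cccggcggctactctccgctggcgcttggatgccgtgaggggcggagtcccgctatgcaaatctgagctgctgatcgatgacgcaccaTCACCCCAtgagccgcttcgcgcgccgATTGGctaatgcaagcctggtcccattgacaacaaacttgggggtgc
Abca1 (chr4:53159896-53160145, minus strand): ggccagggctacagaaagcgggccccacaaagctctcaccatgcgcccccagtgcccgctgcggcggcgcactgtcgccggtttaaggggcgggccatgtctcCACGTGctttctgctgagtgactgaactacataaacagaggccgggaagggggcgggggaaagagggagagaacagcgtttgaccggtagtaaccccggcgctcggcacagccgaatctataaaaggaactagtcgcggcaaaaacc
Sqle, Fdps and Abcg1 had no entry.

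Among these promoters, TCACNCCA matched in Hmgcs1, with its first base 137 bases before the start, and in Srebf2, 162 bases before it. The motif matched in 3.67% of 32851 mouse promoters of the same length. CCAAT matched 3 times in Hmgcs1, 2 times in Idi1 (45 and 14 bases before the start, beyond the stretch shown), and 1 time each in Insig1 and Srebf2, against 33.8% of promoters with any match. CACGTG matched in Insig1 and in Abca1, 101 and 147 bases before the start, against 6.02% of promoters. No match overlapped another, and a match is a description of letters, not a bound site.

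After cells with fewer than 600 or more than 6000 detected genes or over 5% mitochondrial UMIs were left out, 36286 of 39121 cells were kept, 7824 to 10283 per library, with a median of 6782 to 8210 UMIs per cell. Ccl5 was at 6174 and 12544 CPM (UMIs of a gene scaled to a common library total) in the young WT and WT DEN libraries, 12496 in the miR146-/- library and 65.4 in the DKO library. Between 109 and 150 cell barcodes were shared by any pair of libraries, at most 1.64% of the smaller library. Summed over all kept cells, the hepatocyte list was at 9.80 to 16.98 CPM, the endothelial list at 3.96 to 9.18, the stellate list at 0.893 to 1.01 and the erythroid list at 134 to 365. Their part in the results below was not tested.

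Cells were assigned to 18 classes by UMIs of marker lists, and 25062 cells, 63.1% to 72.6% of a library, entered a class. Lymphoid lineages needed at least 2 UMIs over their list and at most 1 over most lists of other lineages. Among T cells, 1 UMI of Pdcd1, Foxp3, Zbtb16 or Cd4 was enough for the PD-1+ CD8, regulatory, NKT-like or conventional CD4 class. Myeloid classes, dendritic cells and neutrophils included, needed at least 2 detected genes of their list and at most 1 UMI over each lymphoid list. Of the markers used to form them, pDC, the plasmacytoid dendritic cells, held Siglech at 2451 CPM and B cells Cd79a at 3226. C1q-high macrophages held C1qb at 3222 and mature dendritic cells (mature DC) Ccr7 at 2587. Because the gates selected on these genes, the values describe the classes and are no test of their identity. Levels below are CPM of the UMIs summed over the cells of a class and library, with exact 95% Poisson intervals. With 1 library per group there is no test between groups, and every interval covers counting error only. Neutrophils (20 to 60 cells per library) and mature DC (10 in the young WT library) were few.

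The synthesis genes stood out in pDC, the class known for type I interferon. In the order young WT, WT DEN, miR146-/-, DKO, which is kept throughout, the summed level of Hmgcs1, Idi1, Fdps and Sqle in pDC was 655, 592, 622 and 508 CPM. That was the highest of all classes with at least 20 cells in each library, 1.54 to 2.67 times the next class and 7.29 to 10.997 times the median of the other classes. The pDC were 113, 65, 121 and 104 cells.

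Fdps, whose product makes farnesyl diphosphate, the branch point to sterols and prenylated proteins, was at 343, 298, 321 and 238 CPM in pDC. Among classes with at least 20 cells the next was cDC1, the cross-presenting dendritic cells, at 128 and 70.5 in the young WT and DKO libraries, and mature DC at 105 and 136 in the WT DEN and miR146-/- libraries. No interval of pDC touched that of another class. The lowest levels were 11.7 CPM in DKO neutrophils, 13.7 in miR146-/- ILC1 and 21.6 in WT DEN NKT-like T cells, with no UMI in the 20 young WT neutrophils.

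Hmgcs1, whose product makes HMG-CoA for the mevalonate pathway, was at 139, 121, 144 and 138 CPM in pDC. In the pooled libraries mature DC followed at 71.0 CPM (60.7 to 82.5), apart from both pDC and cDC2. From cDC2 at 35.0 CPM down to neutrophils at 11.8, each class overlapped its neighbour in the order. In the young WT library, where mature DC were 10 cells, they held Hmgcs1 at 141 CPM (interval 87.4 to 216), level with pDC.

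Sqle, which encodes squalene epoxidase, a rate-limiting enzyme late in the pathway, was the sparsest of the synthesis genes. It reached 63.1, 68.0, 56.0 and 47.5 CPM in pDC and at most 33.5 CPM in any other class with at least 20 cells. In PD-1+ CD8 T cells, the largest class, it was at 7.22, 3.99, 1.76 and 3.82 CPM.

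Idi1, the isomerase that supplies the building block of farnesyl diphosphate, was shared by pDC and mature DC. It was at 110, 105, 101 and 83.7 CPM in pDC and at 269, 160, 96.9 and 74.6 CPM in mature DC. Pooled over the libraries mature DC were higher (129 against 99.2 CPM), with intervals that did not overlap, and by library the intervals overlapped in miR146-/- and DKO. All other classes were at 59.2 CPM or less.

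The mature DC, 10, 63, 27 and 43 cells, were the class that followed pDC for the synthesis sum, at 639, 385, 298 and 197 CPM. They were 1.75 to 2.97 times cDC2 in the same library. cDC1 were 1.78 to 2.87 times B cells, and conventional CD4 T cells were 1.26 to 1.83 times PD-1+ CD8 T cells. Each of these ratios had a counting interval above 1 in every library.

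The median pDC held 12877 UMIs, fewer than the median cDC1 at 23696 or cDC2 at 17446 and more than the median PD-1+ CD8 T cell at 6568.5. When every cell was thinned to 2000 UMIs, Fdps was found in 38.8% of 394 pDC (exact binomial interval 34.0% to 43.8%) against 14.8% of cDC1 and 4.68% of PD-1+ CD8 T cells. Before thinning, it was found in 79.7% of pDC, 69.4% of cDC1 and 14.8% of PD-1+ CD8 T cells.

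Insig1 stood out in the same class. It was at 115, 98.9, 115 and 90.8 CPM in pDC, 2.25 to 4.57 times the next class of at least 20 cells. The 10 young WT mature DC held it at 60.5 CPM (27.7 to 115), above the next class there, cDC2 at 51.1. Pooled over the libraries, each class from regulatory T cells at 26.5 CPM down to NK cells at 14.6 CPM overlapped its neighbour in the order.

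Srebf2 was spread more evenly. Pooled over the libraries, pDC at 117 CPM, cDC2 at 106, cDC1 at 102 and mature DC at 100 had overlapping intervals between neighbours, B cells followed at 77.9, and PD-1+ CD8 T cells were near the bottom at 31.2. In B cells it was at 96.5, 83.5, 62.6 and 53.6 CPM, which was 1.73 to 2.55 times PD-1+ CD8 T cells. The pDC held 1.41 to 1.87 times as much Srebf2 as B cells, against 5.28 to 11.1 times as much Insig1 and 8.14 to 11.3 times as much of the synthesis sum.

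**Figure D1:**
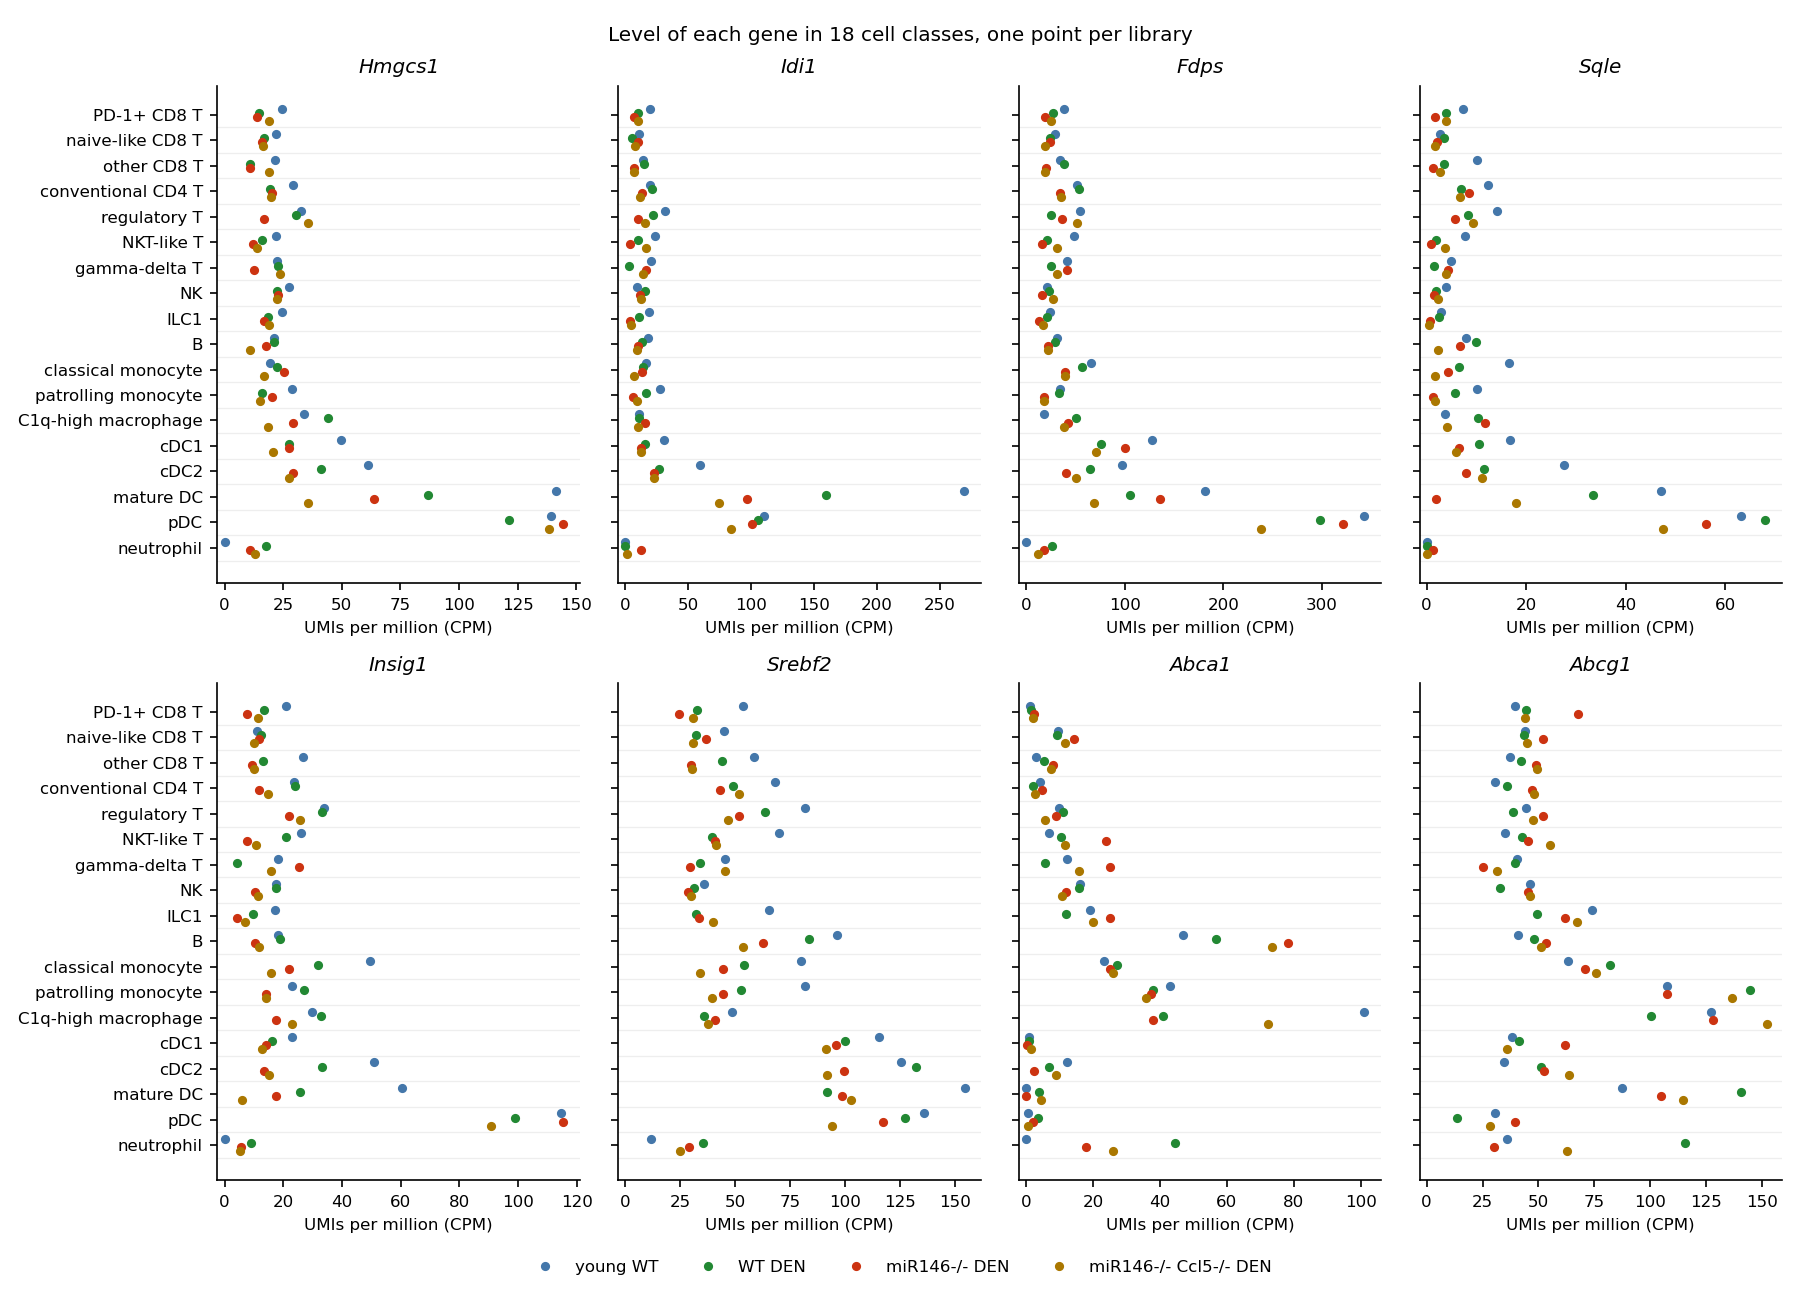
Level of each gene (CPM, x axis, linear, a separate scale per panel) in the 18 cell classes (y axis), with a point for each library. Hmgcs1, Fdps, Sqle and Insig1 are highest in pDC in each library, except that Hmgcs1 in the 10 young WT mature DC lies level with pDC. Idi1 is highest in pDC or mature DC, Abca1 in B cells or C1q-high macrophages, and Abcg1 in C1q-high macrophages or patrolling monocytes.

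The exporters had another pattern, and the 2 differed from each other. Abca1, which hands cholesterol to lipid-poor apolipoprotein A-I, was highest in B cells at 47.0, 56.7, 78.1 and 73.5 CPM and in C1q-high macrophages at 101, 41.0, 37.9 and 72.2 CPM. In the WT DEN library the few neutrophils, at 44.4 CPM, came between these 2 classes. The ratio of B cells to neutrophils there had an interval of 0.541 to 3.96. Pooled over the libraries B cells and C1q-high macrophages were level, at 60.3 and 59.4 CPM. C1q-high macrophages were 27, 80, 55 and 147 cells, and they were above B cells in the young WT library and below them in miR146-/-, with overlapping intervals in the other 2 libraries.

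B cells held 7.12, 12.6, 10.99 and 12.8 times as much Abca1 as all T cells together, with every interval above 6.03. Abca1 was found in 31.2% of B cells (29.5% to 32.9%) and in 1.30% of PD-1+ CD8 T cells (0.990% to 1.69%), at median depths of 6062 and 6568.5 UMIs. Thinned to 2000 UMIs per cell, the shares were 13.4% and 0.277%.

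Among T cells, Abca1 was higher in naive-like CD8 T cells (9.62, 9.41, 14.3 and 11.8 CPM) than in PD-1+ CD8 T cells (1.08, 1.39, 2.56 and 2.25 CPM). The ratios were 7.67, 6.62, 5.56 and 5.19, with intervals from 2.92 upward. The count in PD-1+ CD8 T cells of the young WT library was 3 UMIs.

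Patrolling monocytes held Abca1 at 43.0, 37.9, 37.3 and 36.0 CPM, with overlapping intervals in all 4 libraries. cDC1 held it at 0.769, 0.948, 0.428 and 1.40 CPM, from 1 to 4 UMIs per library, and pDC at 0.760, 3.71, 1.98 and 0.709 CPM from 1 to 3 UMIs. Pooled over the libraries, these 2 dendritic classes were the lowest of all for Abca1. The ratio of cDC1 to patrolling monocytes was 0.0205 (0.00349 to 0.0575), 0.0310 (0.00297 to 0.0940), 0.0171 (0.000289 to 0.0644) and 0.0438 (0.0106 to 0.101).

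Abcg1, which passes cholesterol to HDL particles, was found in all classes. It was highest in C1q-high macrophages at 127, 100, 128 and 152 CPM, patrolling monocytes at 108, 145, 107 and 136 and mature DC at 87.4, 140, 105 and 115. These 3 classes could not be ordered beyond their counting error when pooled. The lowest in the pooled libraries were pDC, which by library were at 30.4, 13.6, 39.6 and 28.4 CPM. In the miR146-/- library gamma-delta T cells at 25.2 and neutrophils at 30.3 CPM were below them. Patrolling monocytes and C1q-high macrophages together held 1.89 to 3.02 times as much Abcg1 as all T cells.

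**Figure D2:**
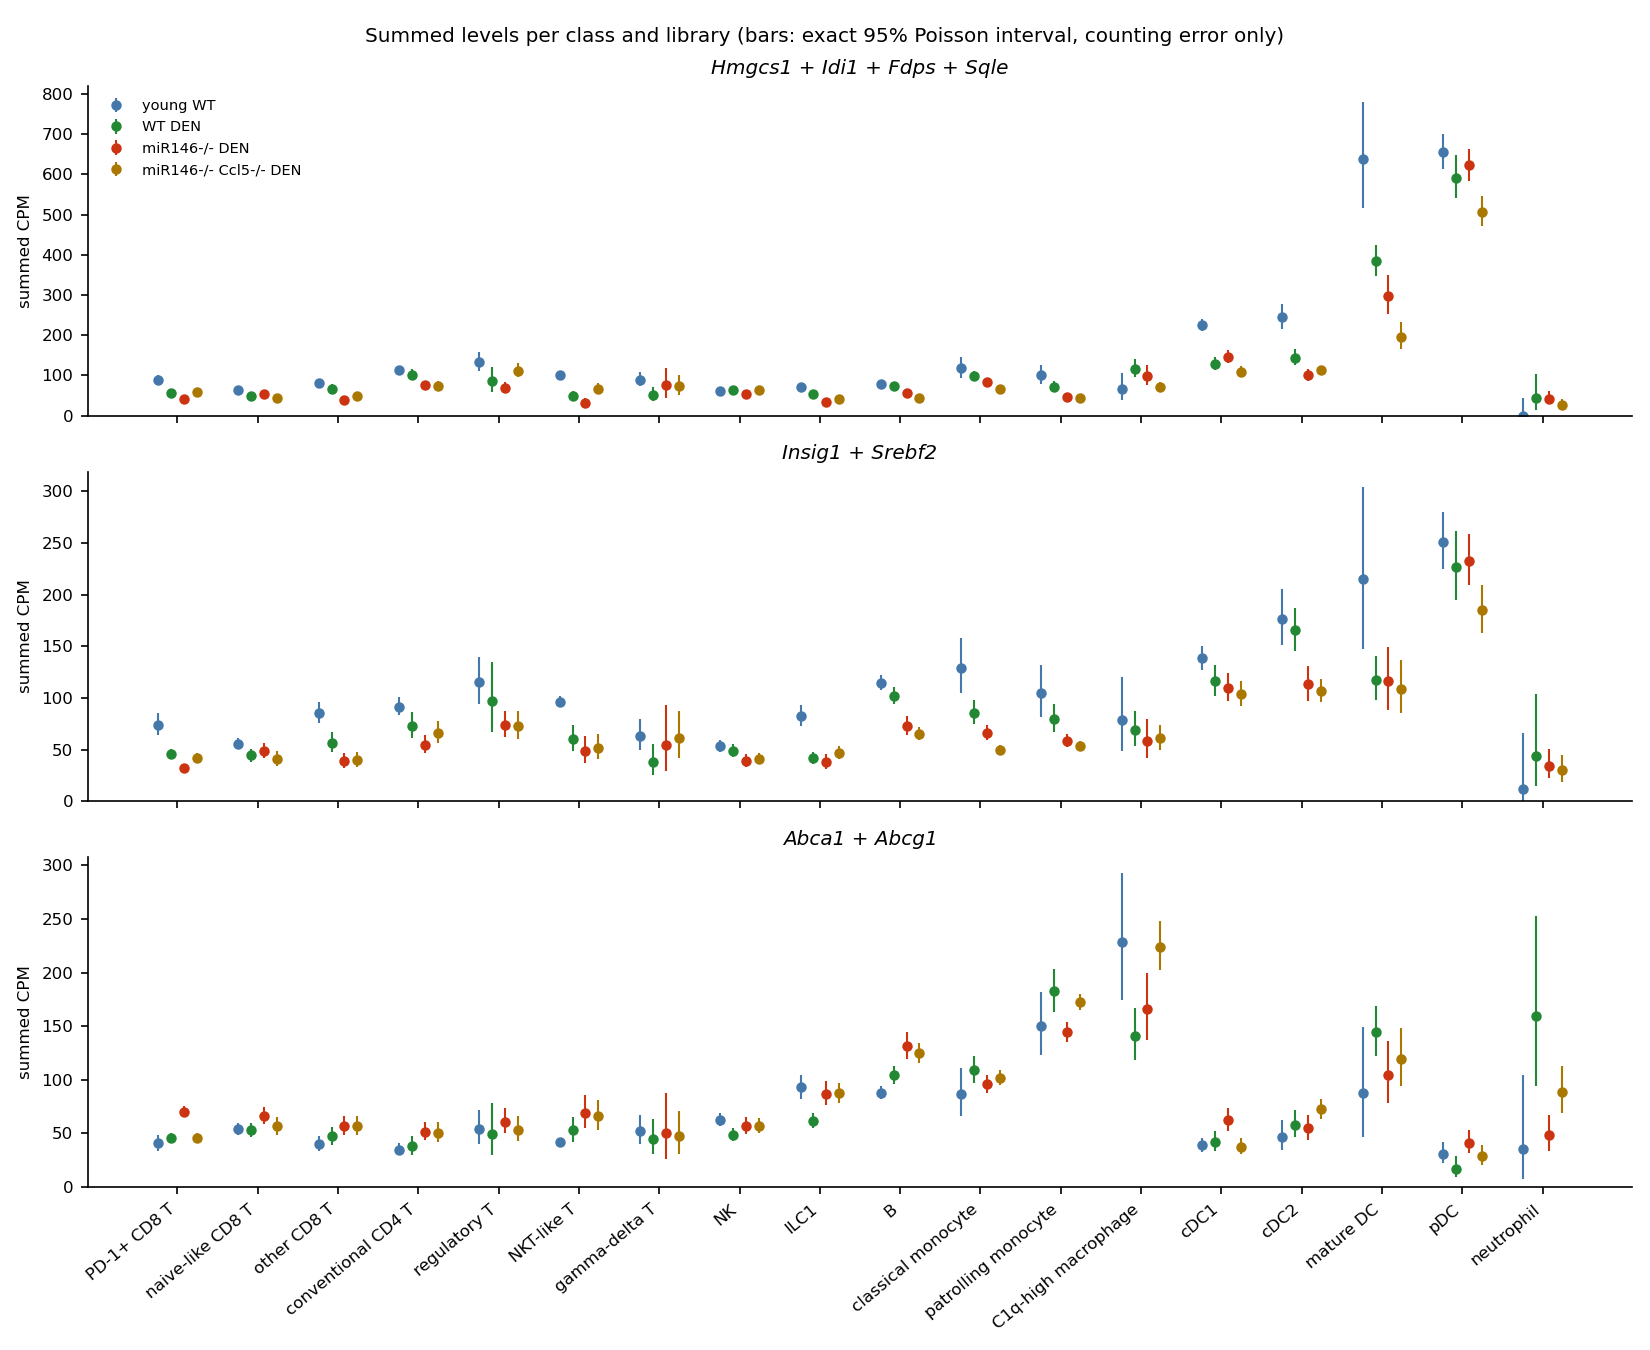
Summed CPM (y axis, from 0) of the synthesis genes, the regulators and the exporters in each of 18 classes (x axis), with a point per library and bars for exact 95% Poisson intervals. The top and middle panels peak at pDC in every library with at least 20 cells of the class, while the bottom panel is lowest at pDC.

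The rest of the pathway was read from lists. Of 17 other synthesis enzymes, 15 were at their highest in pDC, where 13.8% of 9412 genes were. Msmo1, a sterol methyl oxidase, was at 125 CPM in pDC and 37.8 in mature DC, the next class, and Pmvk, a mevalonate pathway kinase, at 108 and 107. The exceptions were Ggps1, which makes geranylgeranyl diphosphate for protein prenylation, highest in B cells at 65.6 CPM, and Ebp, highest in regulatory T cells at 114. These classes were formed by markers and not by clustering, and none of the listed genes is among those markers.

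Of 8 other regulators, 3 were highest in pDC, among them Scap at 82.0 CPM against 27.5 in the next class. Nr1h3 was highest in C1q-high macrophages at 330 CPM, with patrolling monocytes at 136, and at 1.39 CPM in pDC. Nr1h2 was even, at most 83.8 CPM in ILC1. Mylip, an LXR target that encodes a ubiquitin ligase, was at 110 CPM in ILC1 and 105 in B cells.

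Of 11 genes of uptake, storage and trafficking, Npc1, which moves cholesterol out of lysosomes, was highest in pDC at 170 CPM against 40.9 in the next class. Lrp1, an endocytic receptor, reached 396 CPM in classical monocytes, and Cd36 198 in cDC1. Npc2 was at 1211 CPM in mature DC and 1139 in C1q-high macrophages. Vldlr was at 0 in every class.

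Of 7 other genes of efflux and LXR response, Apoe was at 3332 CPM in C1q-high macrophages and Pltp, the phospholipid transfer protein, at 1507 CPM in pDC. Of 6 genes of fatty acid synthesis under SREBP-1, 2 were highest in pDC, Acaca and Scd2, at 30.1 and 47.1 CPM. Scd1, a desaturase, was at 165 CPM in B cells and at most 9.66 in any other class.

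Likeness in level across classes was also ranked over the whole table. Over 18 classes and 6144 genes, the gene nearest to Sqle in Pearson's r of log2(CPM + 1) was Cyp51 (0.97), another sterol enzyme, then Fdps (0.95). Fdps was nearest to Sqle and Hmgcs1, and Hmgcs1 to Fdps, Adam11 and Dtx2 (0.93 each). Idi1 was nearest to Hmgcs1 (0.93), Adam11 and Sqle (0.90 each).

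Insig1 was nearest to Bst2 (0.89), Sqle and Arhgef10 (0.87 each), and Srebf2 to Cyp51, Hmgn3 (0.89 each) and Sqle (0.87). Abcg1 was nearest to Ddhd1 (0.93), Ms4a7 and Htra2 (0.89 each). Abca1 had no near neighbour, with A630001G21Rik at 0.79, Neu1 at 0.77 and Sox5 at 0.75. The classes share libraries and differ in depth, and without pDC and mature DC the r of Hmgcs1 with Fdps was 0.82 over 16 classes, that of Fdps with Sqle 0.87 and that of Abca1 with Abcg1 0.59.

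The first comparison between libraries, WT DEN against young WT, spans age, carcinogen and diet. Over all kept cells the synthesis sum was 113, 82.4, 76.9 and 70.8 CPM and the regulator sum 96.4, 69.6, 59.9 and 58.0 CPM. The exporter sum ran the other way, at 58.1, 75.2, 84.6 and 98.2 CPM. The young WT library was the highest for each of the 6 synthesis and regulator genes and the lowest for both exporters.

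By gene, Srebf2 was at 71.5, 50.4, 45.0 and 43.8 CPM, Fdps at 51.8, 39.0, 36.5 and 33.8 and Hmgcs1 at 29.5, 21.6, 22.7 and 20.7. Insig1 was at 24.9, 19.2, 15.0 and 14.2 CPM, Idi1 at 22.2, 15.5, 12.7 and 12.3 and Sqle at 9.48, 6.33, 4.97 and 4.0001. Abcg1 was at 43.8, 57.3, 66.5 and 76.1 CPM and Abca1 at 14.3, 17.9, 18.1 and 22.1.

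None of the 8 genes passed 1.5-fold over all kept cells in any of the 3 comparisons, a comparison limited to genes that reached 20 CPM and 20 UMIs on either side. Of all genes tested, 3.45% were lower and 5.65% higher past 1.5-fold in WT DEN against young WT, 2.81% and 3.65% in miR146-/- against WT DEN, and 0.717% and 1.73% in DKO against miR146-/-. The log2 ratios of WT DEN to young WT lay between -0.58 for Sqle and -0.37 for Insig1 for the 6 synthesis and regulator genes and were 0.32 for Abca1 and 0.39 for Abcg1, against a median of -0.03 over all genes.

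Libraries differ in the share of each class, so the sums were also taken with equal weight to each of 17 classes (mature DC left out for its 10 young WT cells), an alternative added after the data were seen. The synthesis sum was then 135, 109, 98.4 and 92.0 CPM and the regulator sum 101, 82.1, 69.2 and 65.9. In these means the order of the libraries was as before. Medians over the same classes gave 89.9, 71.8, 56.6 and 65.6 CPM for the synthesis sum, with DKO above miR146-/-. The exporter sum was 69.5, 74.0, 77.4 and 80.8 CPM in means and 52.8, 53.0, 62.4 and 57.2 in medians, with DKO below miR146-/- in the latter. The means spanned a narrower range than over all cells, and those of Abca1 were 18.3, 17.2, 19.2 and 19.6 CPM, where its medians were 9.80, 10.5, 14.3 and 11.6. Patrolling monocytes, rich in Abcg1, were 79, 160, 707 and 1390 cells.

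**Figure D3:**
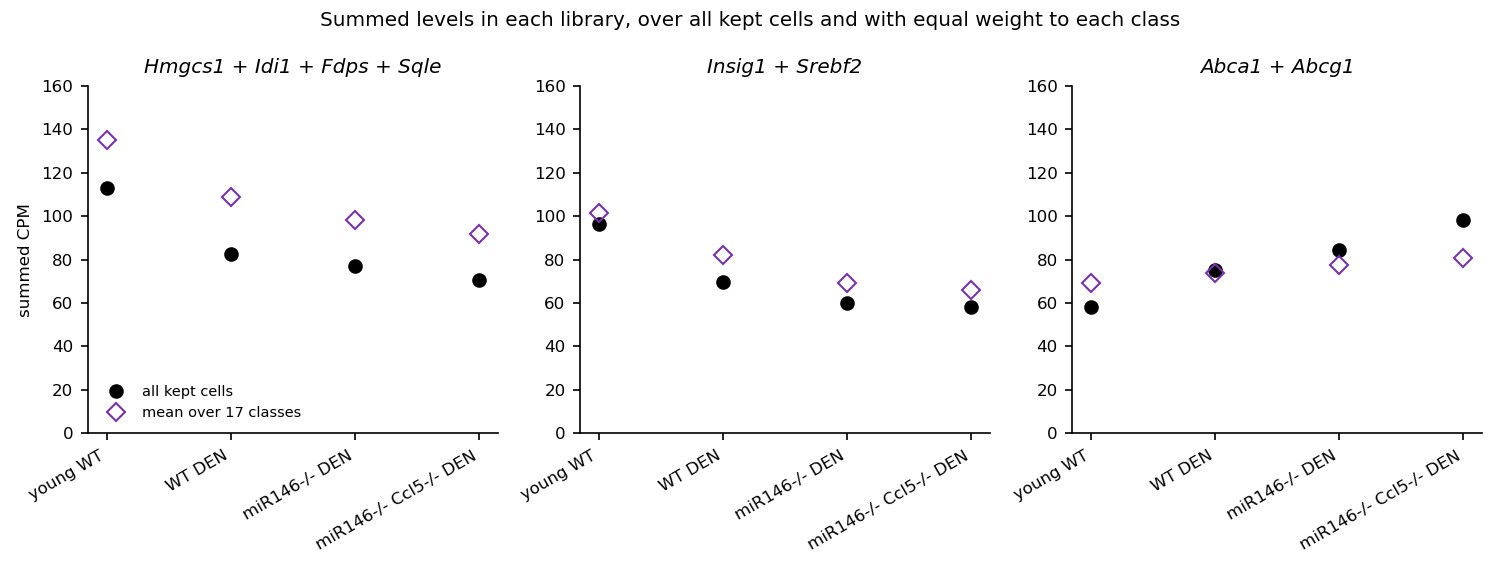
Summed CPM (y axis, from 0) of the synthesis genes, the regulators and the exporters in each library (x axis), over all kept cells (filled points) and as the mean over 17 classes with equal weight (open diamonds). The synthesis and regulator sums fall from left to right both ways, and the rise of the exporters is smaller with equal weights.

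Class by class, the young WT library was the highest of 4 for the synthesis sum in 14 of 17 classes and for the regulator sum in 16 of 17. In WT DEN against young WT, the synthesis sum was lower in 15 of 18 classes, 10 of them past their counting interval, and higher in 3, 1 past it. The regulator sum was lower in 17 of 18, 11 past it. Srebf2 was lower in 16 of 18 classes, 10 past the interval, and the exporter sum had no common direction, higher in 11 of 18 with 2 past the interval and lower in 7 with 3 past it. The 18 classes come from the same pair of libraries and are not replicates. Among the 8 classes with at least 100 cells in both libraries, the synthesis sum was lower in 7 and the regulator sum in 8.

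PD-1+ CD8 T cells, in which PD-1 marks activated and exhausted cells, were 338, 1297, 1491 and 1242 cells. Their synthesis sum was 89.9, 56.6, 41.4 and 58.2 CPM and their regulator sum 74.4, 46.1, 32.3 and 42.4 CPM. The young WT library was the highest and the miR146-/- library the lowest for both, with no overlap of the intervals of these libraries with the others. The log2 ratio of the synthesis sum was -0.67 for WT DEN to young WT (interval -0.88 to -0.45), -0.45 for miR146-/- to WT DEN (-0.63 to -0.27) and 0.49 for DKO to miR146-/- (0.31 to 0.67). DKO and WT DEN were level, with a log2 ratio of 0.04 (-0.13 to 0.21).

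Srebf2 in these cells was at 53.4, 32.7, 24.6 and 30.9 CPM, Hmgcs1 at 24.5, 14.8, 13.8 and 19.0 and Insig1 at 20.9, 13.4, 7.76 and 11.5. Fdps was at 38.6, 27.7, 19.1 and 24.9 CPM and Idi1 at 19.5, 10.0, 6.70 and 10.4. Every one of these genes, and Sqle, was highest in young WT and lowest in miR146-/-. For Hmgcs1 the miR146-/- and WT DEN values were close, with a log2 ratio of -0.10 that kept its sign in 9 of 10 settings. Of the 4 synthesis and regulator genes tested in WT DEN against young WT, 3 were past 1.5-fold lower (Hmgcs1, Insig1 and Srebf2), where 6.72% of genes were lower and 5.51% higher. Insig1 with stricter gates, at a log2 ratio of -0.51, and Srebf2 when thinned, at -0.47, did not reach that fold, and neither did when each cell was weighted equally (-0.55 and -0.57).

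Abcg1 ran opposite to the enzymes between the older libraries, at 39.7, 44.4, 67.9 and 43.9 CPM. The miR146-/- library was high and the other 3 had overlapping intervals. The log2 ratio of miR146-/- to WT DEN was 0.61 (0.45 to 0.78) and that of DKO to miR146-/- was -0.63 (-0.81 to -0.45), both past 1.5-fold. In miR146-/- against WT DEN 3.77% of genes were lower and 3.0% higher, and in DKO against miR146-/- 1.53% were lower and 2.12% higher. No synthesis or regulator gene among the 2 tested in either comparison was past 1.5-fold.

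Cycling cells, with at least 2 UMIs of 5 cell cycle genes, were 13.6%, 22.4%, 8.92% and 14.5% of PD-1+ CD8 T cells, also lowest in miR146-/-. Without them, the log2 ratios of the synthesis sum were -0.81, -0.55 and 0.36 in the 3 comparisons, and those of the exporter sum in the last 2 were 0.56 and -0.48. The log2 ratios of Abcg1 alone were then 0.55 and -0.50, below 1.5-fold.

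B cells were 1221, 687, 410 and 658 cells. Their synthesis sum was 78.4, 72.7, 56.6 and 44.7 CPM and their regulator sum 115, 102, 72.9 and 65.3, each lower with every library in this order. The intervals of the first pair and of the last pair of libraries overlapped for the synthesis sum, and its log2 ratios were -0.11 (-0.29 to 0.07), -0.36 (-0.62 to -0.11) and -0.34 (-0.62 to -0.06).

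The share of cycling B cells was 4.34%, 9.32%, 3.66% and 5.17%. Without cycling cells the synthesis sum of miR146-/- against WT DEN was 0.22 on the log2 scale in place of -0.36, and with stricter gates it was -0.023. The regulator sum in that comparison was -0.38 without cycling cells and -0.49 with them.

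Abca1 in B cells was lowest in young WT, and the miR146-/- and DKO libraries were level. The log2 ratios were 0.27 (0.05 to 0.49), 0.46 (0.22 to 0.70) and -0.09 (-0.31 to 0.14). Of the genes that reached 20 CPM and 20 UMIs, 5, 5 and 4 in the 3 comparisons, none was past 1.5-fold in B cells, where 1.66%, 6.03% and 3.48% of genes were lower and 3.06%, 3.09% and 2.97% higher. In DKO against miR146-/- the median of all genes was itself at -0.14.

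Patrolling monocytes, which crawl along vessel walls, were 79, 160, 707 and 1390 cells with median depths of 7305, 10186, 7315 and 6124 UMIs. Their synthesis sum was 100, 71.8, 46.5 and 44.8 CPM and their regulator sum 105, 79.8, 58.7 and 53.7 CPM. The last 2 libraries overlapped and lay below the first 2. The log2 ratios of the synthesis sum were -0.49 (-0.91 to -0.04), -0.63 (-0.93 to -0.32) and -0.05 (-0.26 to 0.15), and the first of them was 0.15 with stricter gates, where the regulator sum was 0.049 in place of -0.40. Without the top 10% of cells by UMIs the log2 ratio of the regulator sum was also no longer negative.

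Of the 4 synthesis and regulator genes tested in patrolling monocytes in the first comparison, Hmgcs1 and Srebf2 were past 1.5-fold lower, where 8.84% of genes were lower and 9.33% higher. With stricter gates neither reached 1.5-fold, at log2 ratios of -0.48 for Hmgcs1 and -0.29 for Srebf2, and Srebf2 was at -0.22 when thinned. Of 4 tested in miR146-/- against WT DEN, Fdps and Insig1 were past 1.5-fold lower, where 10.0% were lower and 8.39% higher. Fdps was at 34.4, 33.9, 18.5 and 18.7 CPM and Insig1 at 22.9, 27.1, 14.1 and 14.0 CPM. The young WT values rest on 24 and 16 UMIs, and the Insig1 interval there, 13.1 to 37.3 CPM, covers the other three libraries. The log2 ratio of WT DEN over young WT ranged over the settings from -0.18 to 0.93 for Fdps and from -0.0063 to 1.09 for Insig1, so the place of young WT among the libraries was not settled. In DKO against miR146-/- none of 4 genes tested was past 1.5-fold, where 0.734% were lower and 1.53% higher. Abcg1 was higher in WT DEN and DKO than in young WT and miR146-/-, with log2 ratios of 0.42 (0.05 to 0.82), -0.43 (-0.64 to -0.22) and 0.34 (0.22 to 0.47). With cells thinned to 2000 UMIs the first 2 of these ratios for Abcg1 were -0.14 and 0.019, so their direction turned.

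In pDC the log2 ratios of the synthesis sum were -0.15 (-0.31 to 0.02), 0.07 (-0.09 to 0.23) and -0.29 (-0.44 to -0.15), the last of them past counting error with the DKO library low. Abcg1 in pDC had 40, 11, 60 and 40 UMIs and log2 ratios of -1.11 (-2.27 to -0.17), 1.49 (0.60 to 2.62) and -0.47 (-1.09 to 0.12).

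cDC1, by contrast, had a synthesis sum of 225, 129, 146 and 110 CPM, with the young WT library high and the other 3 lower. The log2 ratio of WT DEN to young WT was -0.80 (-0.999 to -0.60), and the interval did not overlap that of pDC. A difference between classes was not tested beyond these intervals. NKT-like T cells, 1619, 181, 140 and 164 cells, were at 102, 49.4, 32.3 and 65.8 CPM, with log2 ratios of -1.04 (-1.39 to -0.72), -0.60 (-1.21 to -0.04) and 1.01 (0.46 to 1.61).

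Across classes, miR146-/- against WT DEN gave a lower synthesis sum in 14 of 18 classes, 11 past their counting interval, and Insig1 was lower in 16 of 18, 9 past it, and higher in 2, 1 past it. The exporter sum was higher in 13 of 18, 7 past the interval, and lower in 5, 3 past it. DKO against miR146-/- had no common direction, with the synthesis sum lower in 11 classes and higher in 7, of which 6 and 4 were past the interval. Among the 12 classes with at least 100 cells in both of these libraries, 6 were lower and 6 higher.

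**Figure D4:**
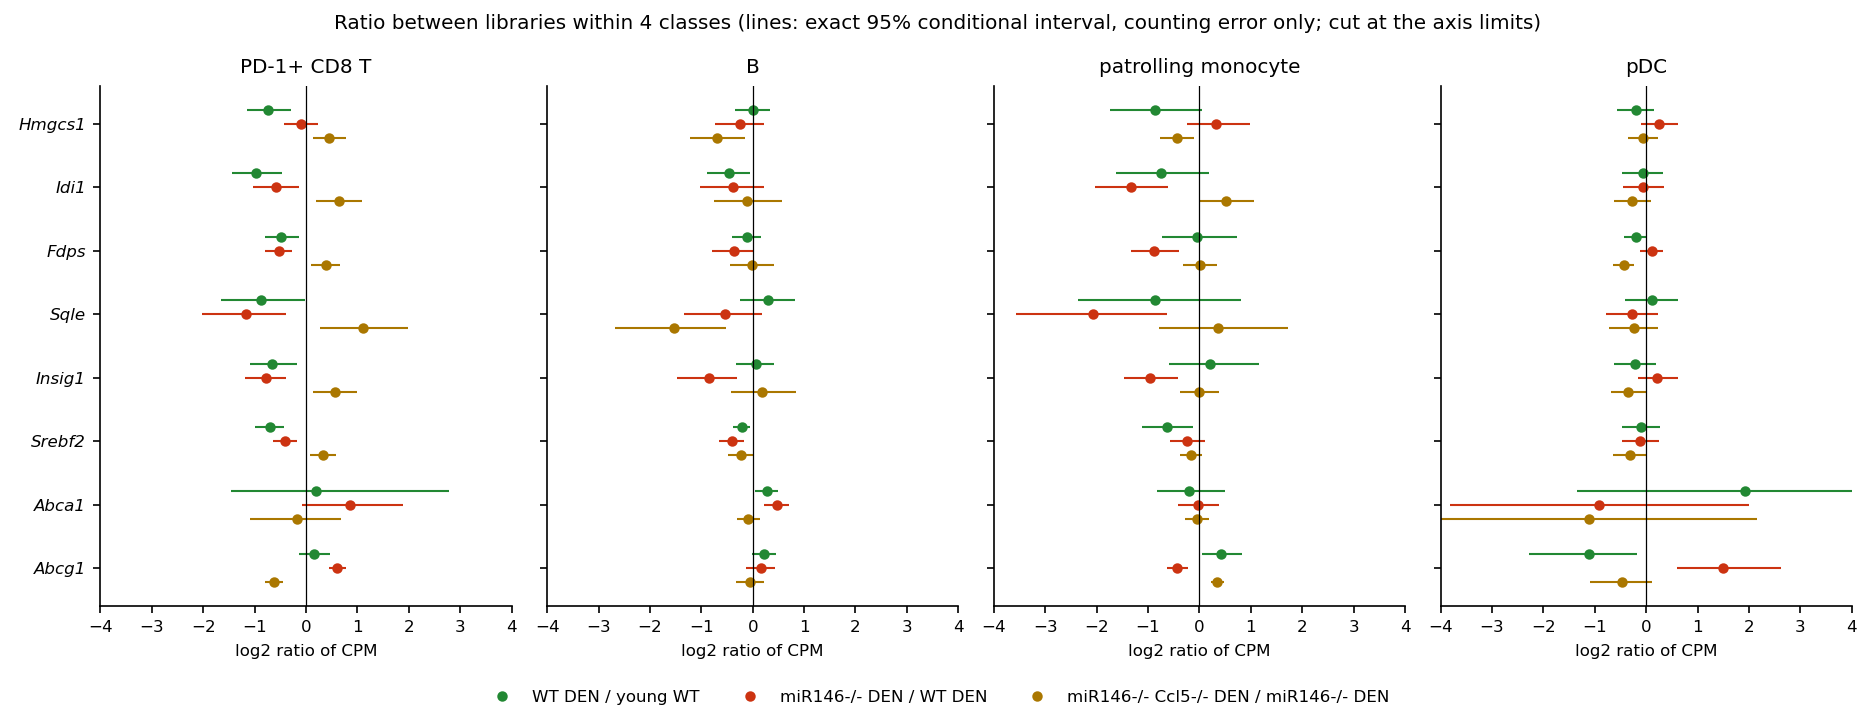
Log2 ratio of CPM (x axis) of each gene (y axis) in the 3 comparisons within PD-1+ CD8 T cells, B cells, patrolling monocytes and pDC, with lines for exact 95% intervals of counting error. In PD-1+ CD8 T cells the 6 synthesis and regulator genes lie left of 0 in the first 2 comparisons and right of 0 in the third. Hmgcs1 lies close to 0 in the second, at -0.10. Abcg1 does the opposite of the 6 genes in the last 2.

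The wider lists were read in the same way. In PD-1+ CD8 T cells, of 8 other synthesis enzymes tested in WT DEN against young WT, none was past 1.5-fold lower and 1 was higher, Pmvk (11.9 against 21.7 CPM), and their median log2 ratio was -0.03, level with -0.02 over all genes. Fdft1, squalene synthase, was at 28.5, 31.6, 26.0 and 25.8 CPM there. In miR146-/- against WT DEN 1 of 5 enzymes was lower, Pmvk again, at 13.1 CPM, and in DKO against miR146-/- none of 5 was past 1.5-fold. Mylip was at 63.5, 38.8, 56.0 and 44.8 CPM, past 1.5-fold lower in WT DEN.

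In patrolling monocytes, the 6 other enzymes tested in WT DEN against young WT had a median log2 ratio of -0.42 against -0.03 over all genes, and all 6 were below 0, with Fdft1 past 1.5-fold lower (31.5 against 14.1 CPM). In miR146-/- against WT DEN the median of 5 was -0.41 and none was past 1.5-fold. Over all kept cells, the median of 8 was -0.17 in the first comparison, with Sc5d, an enzyme near the end of the pathway, past 1.5-fold lower (34.5 against 21.6 CPM). In B cells none of 5, 5 and 3 enzymes tested was past 1.5-fold in the 3 comparisons.

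Among uptake genes in patrolling monocytes, Cd36, Msr1 and Npc2 were past 1.5-fold lower in miR146-/- than in WT DEN, where 10.0% of all genes were. Cd36, a scavenger receptor, was at 218, 188, 83.1 and 93.1 CPM, Msr1, another, at 21.5, 46.4, 11.1 and 10.4 and Npc2 at 546, 752, 421 and 448. For all 3 the miR146-/- and DKO libraries lay below the WT libraries.

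Nr1h3 in patrolling monocytes was at 67.4, 175, 109 and 149 CPM, past 1.5-fold higher and then lower in the first 2 comparisons. Apoe was at 1553, 1460, 670 and 809 CPM, Pltp at 255, 242, 448 and 555 and Abca7 at 55.9, 39.6, 67.8 and 56.5, so in miR146-/- against WT DEN Apoe was past 1.5-fold lower and Pltp and Abca7 higher. Mylip was at 41.6, 65.1, 44.7 and 45.1 CPM, higher past 1.5-fold in WT DEN. The C1q genes, which mark the neighbouring macrophages, were at 78.9, 176, 139 and 204 CPM in patrolling monocytes, and their part in these values was not tested.

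Over all kept cells, 3 of 8 uptake and storage genes were past 1.5-fold higher in WT DEN than in young WT, where 5.65% of all genes were. Lrp1 was at 15.8, 55.5, 109 and 120 CPM, Scarb1, the HDL receptor, at 16.5, 28.0, 49.9 and 57.7 and Lipa, the lysosomal lipase, at 42.0, 70.6, 60.8 and 83.9. Lrp1 and Scarb1 were higher again past 1.5-fold in miR146-/-. In patrolling monocytes alone Lrp1 was at 305, 288, 402 and 331 CPM and Scarb1 at 126, 122, 137 and 133, neither past 1.5-fold. The part of cell numbers in the values over all cells was not tested.

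Nr1h3 over all kept cells was at 6.06, 39.6, 34.8 and 68.0 CPM, past 1.5-fold higher in WT DEN and in DKO. Apoe was at 240, 736, 320 and 436 CPM and Pltp at 58.4, 66.9, 171 and 240. Apoe was at 45.1, 84.8, 19.1 and 27.2 CPM in PD-1+ CD8 T cells, where the C1q genes were at 15.2, 47.8, 25.6 and 54.0 and the hepatocyte list at 6.86, 10.8, 5.29 and 8.65. Apoe in B cells was at 245, 517, 350 and 452 CPM. Abca7, a lipid transporter related to Abca1, was at 16.9, 12.3, 21.5 and 15.1 CPM in B cells, past 1.5-fold higher in miR146-/- than in WT DEN. Whether free RNA makes up part of these Apoe levels was not tested.

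Cycling cells held more of the enzymes and less of the exporters than the other cells compared with them, of the same lineage and library. The other cells were only part of the cells not called cycling, and some cells of a lineage entered neither group. In CD8 T cells (125, 365, 197 and 237 cycling cells) the synthesis sum was 164, 81.7, 88.9 and 94.7 CPM in cycling cells. In the other cells compared (1196, 1312, 1708 and 1467) it was 59.1, 47.8, 35.0 and 42.5 CPM. The ratios were 2.77 (2.40 to 3.20), 1.71 (1.49 to 1.96), 2.55 (2.17 to 2.98) and 2.23 (1.91 to 2.59). As background, 11.8% to 14.2% of all genes tested were past 1.5-fold higher in cycling CD8 T cells.

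Idi1 had ratios of 3.45, 2.05, 5.32 and 4.45 in CD8 T cells, the widest of the 4 enzymes except in WT DEN, and Fdps had ratios of 2.68, 1.65, 2.32 and 2.19. Insig1 was 1.29 to 1.61 times as high in cycling cells and Srebf2 0.964 to 1.44 times. Abcg1 was 0.726, 0.715, 0.682 and 0.549 times the level of other cells, below 1 past counting error in all 4 libraries.

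CD4 and regulatory T cells combined gave ratios of the synthesis sum of 2.37, 3.15, 2.82 and 2.42 with all intervals above 1, and NK cells of 1.65 to 3.02. In B cells the ratios were 3.95, 3.62, 0.866 and 1.78 from 53, 64, 15 and 34 cycling cells, so the miR146-/- library, with the fewest, did not share the direction (interval 0.435 to 1.48).

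Abca1 in cycling B cells was at 3.95, 9.46, 16.03 and 8.79 CPM, from 4, 10, 5 and 7 UMIs. In the other B cells compared (1089, 544, 374 and 571 cells) it was at 55.3, 65.2, 83.4 and 93.0 CPM. All 4 libraries were far lower in cycling cells, and the intervals of the ratio reached at most 0.455, where 14.9% to 24.9% of all genes tested were past 1.5-fold lower. Over 31 pairs of lineage and library with at least 10 cycling cells, the synthesis sum was higher in cycling cells in 29, Abca1 lower in 30 and Abcg1 lower in 30. The exceptions for the synthesis sum were B cells and dendritic cells of the miR146-/- library.

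**Figure D5:**
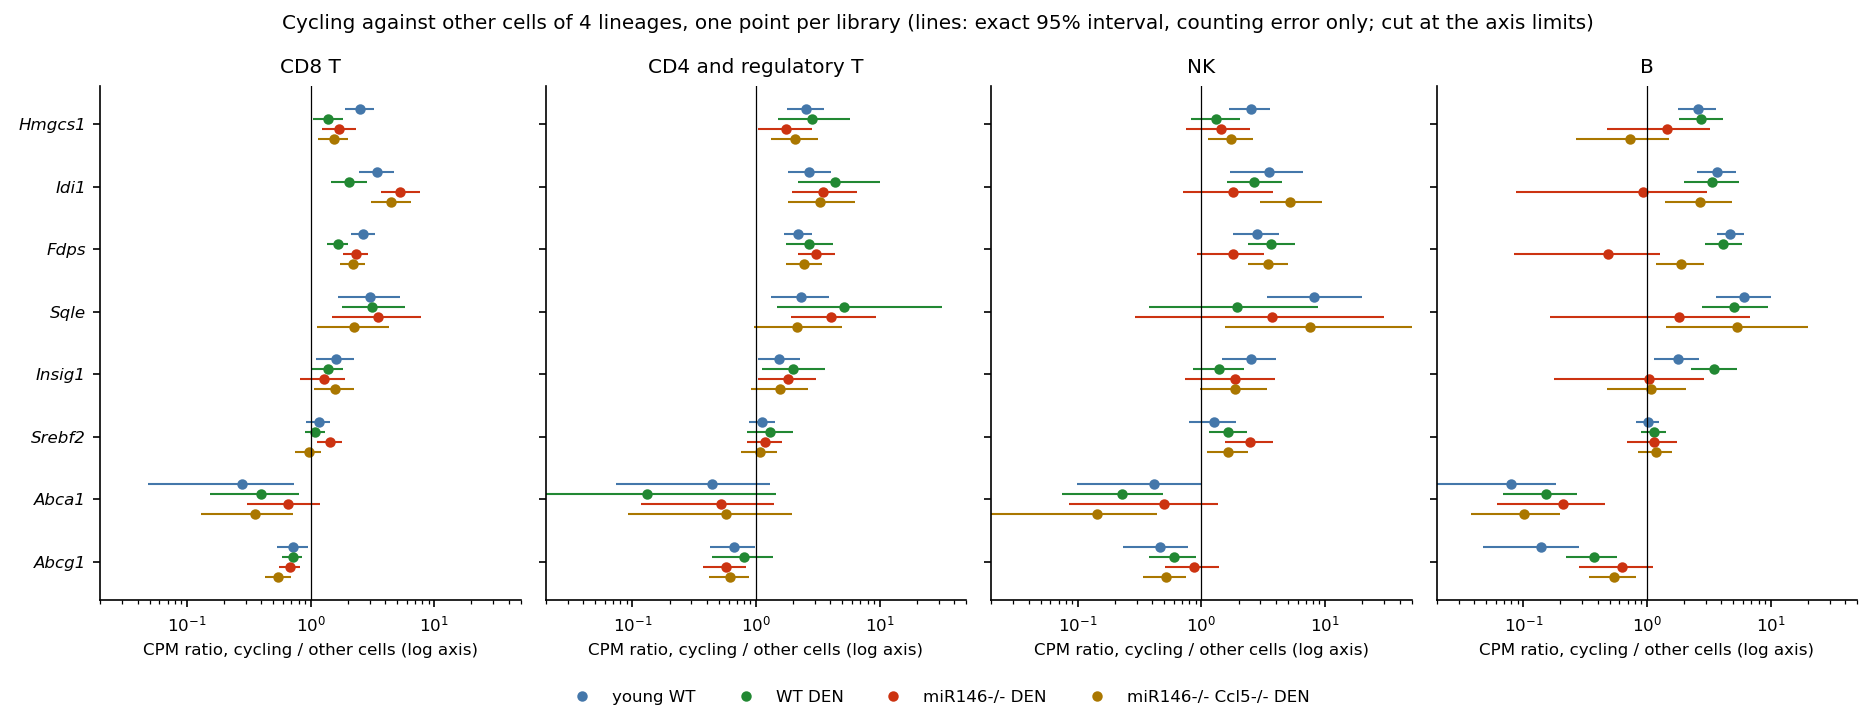
Ratio of CPM in cycling to other cells (x axis, log scale, prior of 0.5 counts) of each gene (y axis) in CD8 T cells, CD4 and regulatory T cells, NK cells and B cells, with a point per library and lines for exact 95% intervals of counting error. Hmgcs1, Idi1, Fdps and Sqle lie right of 1 in all 4 libraries of the T and NK panels, and Abca1 and Abcg1 lie left of 1.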

How the data were processed

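Livers were dissociated, CD45+ cells were sorted with DAPI and anti-CD45 FITC, and 5′ v2 libraries were made. The matrices hold UMI counts that were not normalized, as deposited by the authors, made with Cell Ranger (7.0.1 per the file headers and the submitters' processing notes) on mm10. Whether intronic reads were counted, and the aligner settings, are not given in the sources used here. Cells were kept with 600 to 6000 detected genes and at most 5% mitochondrial UMIs, which was also the only treatment of doublets, and 79464882 to 96747482 UMIs per library remained. No sample column was left unused.

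Cells were put into classes by marker UMIs, and C1q-high macrophages needed at least 10 C1q UMIs, a limit read from B-gated cells. Counts were summed by class and library and given as CPM with exact Poisson intervals, shares with exact binomial (Clopper-Pearson) intervals, and log2 ratios with a prior of 0.5 counts and an exact conditional binomial interval, all at 95% and covering counting error only. Ratios between classes and between cycling and other cells used the same prior. A gene was called past 1.5-fold only if either library reached 20 CPM and 20 UMIs. With 1 library per group no p-value was computed. For shares compared across depths, every cell was reduced at random to 2000 UMIs, without those that held fewer.

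The 8 genes and the lists were chosen with earlier results of these data known. Named beside the 8 were list genes past 1.5-fold in a class described, the 2 highest of each list, and for each of the 8 the 3 genes nearest in Pearson's r, among genes reaching 50 CPM in a class. Other list genes were named after their values were seen. Of the listed symbols, 2 had no row. Values of some list genes that the rule would name are not reported here. Alternatives were stricter gates, thinning, leaving out cycling cells or the top 10% of cells by UMIs, and other cell filters. Further ones were TMM scaling, means over cells, other priors and thresholds, and scaling to totals without certain genes. Left out of those totals were mitochondrial, ribosomal protein, haemoglobin, immunoglobulin and T-cell receptor genes, Ccl5 and Jchain. Equal weights per class and the limit of 100 cells were added after the data were seen. No model was fitted to the counts. Python 3.11.15, numpy 2.4.6, scipy 1.17.1, pandas 2.3.3, matplotlib 3.10.9, R 4.3.3 and edgeR 4.0.16 (TMM only) were used.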

Additional observations from a re-analysis of the deposited data

Results flagged for a closer look

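Among classes with at least 100 cells in both libraries, a gene's ratio exceeded 1.5-fold and its counting interval lay wholly on that side of no change, in opposite directions under the same comparison, in 5 cases. No minimum level was applied, so genes below 20 CPM are included. For each, the class with the highest and the class with the lowest ratio are given. The difference between classes was not tested in any of them, since each side is 1 library against another, and each pair was picked from all classes by its values.

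Idi1 in WT DEN against young WT had a log2 ratio of 0.77 in NK cells and -1.23 in NKT-like T cells. Idi1 in miR146-/- against WT DEN was at 0.98 in naive-like CD8 T cells and -1.38 in ILC1. Idi1 in DKO against miR146-/- was at 2.15 in NKT-like T cells and -0.92 in classical monocytes. Hmgcs1 in DKO against miR146-/- was at 1.06 in regulatory T cells and -0.69 in B cells, and Sqle at 1.10 in PD-1+ CD8 T cells and -1.54 in B cells. When cells were thinned to 2000 UMIs, 1 side of each of these last 2 cases turned, with Hmgcs1 in B cells at 0.11 and Sqle in PD-1+ CD8 T cells at -0.029.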

How the results depend on the processing

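No paired analysis was possible because each group holds 1 library and the libraries carry no shared replicate. Of 33 log2 ratios in each class, 24 kept their sign in every setting run over all kept cells, 27 in PD-1+ CD8 T cells, 15 in B cells and 17 in patrolling monocytes. The synthesis sum moved in these cases, and the cause was not tested. Without the top 10% of cells by UMIs, DKO against miR146-/- in PD-1+ CD8 T cells was 0.26. With stricter gates, B cells were at -0.023 for miR146-/- against WT DEN and -0.65 for DKO against miR146-/-, and patrolling monocytes at 0.15 for WT DEN against young WT, where the regulator sum, -0.40 as reported, was 0.049. Without the top 10% of cells by UMIs that sum was also no longer negative. Without cycling cells, B cells were at 0.22 for miR146-/- against WT DEN. Thinned, B cells were at 0.12 for WT DEN against young WT and patrolling monocytes at -0.40 for DKO against miR146-/-. For cycling against other CD8 T cells, a limit of 4 cell cycle UMIs gave 1.81, 1.59 and 1.43 in the young WT, miR146-/- and DKO libraries, and thinning gave 1.08 in young WT and 0.40 in WT DEN. Among ratios over 1.5-fold at any level of expression, those that reversed were Abca1 for miR146-/- against WT DEN in PD-1+ CD8 T cells (-0.87 thinned, -0.086 without the top 10%), Sqle for DKO against miR146-/- there (-0.029 thinned), Hmgcs1 for DKO against miR146-/- in B cells (0.11 thinned) and Idi1 for WT DEN against young WT in patrolling monocytes (0.23 with stricter gates). Below that fold, Abcg1 in patrolling monocytes turned when thinned, to -0.14 for WT DEN against young WT and 0.019 for miR146-/- against WT DEN. Counts of all genes past the fold moved by more than 1.5 times under a minimum of 50 CPM, of 1 UMI, or a 2-fold limit. TMM scaling moved ratios by at most 0.13, in B cells of DKO against miR146-/-. Libraries with few cells of a class limit the depth there, and with 1 library per group the spread between mice is unknown.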
